A study of Mus musculus with 31 samples.

Results

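The loss of Sox9 was examined in fetal mouse gonads of XX chromosome composition, where the gene is scarcely expressed. The arrays compared were all 16 XX arrays of the 31 in the series: 8 from gonads with both Sox9 alleles floxed (4 labelled XX Sox9KO and 4 labelled XX Ctnnb1/Sox9 DKO, called XX DKO here) and 8 from gonads with 1 floxed Sox9 allele (4 labelled XX Ctr and 4 labelled XX Ctnnb1KO). The members were chosen by genotype label alone, and the Ctnnb1 genotype entered the test as a covariate. All embryos were at embryonic day 14.5 and all carried 1 copy of the Sf1-cre transgene. The genotypes were Sf1-cre+/Tg with Ctnnb1+/f and Sox9+/f for XX Ctr, with Ctnnb1f/f and Sox9+/f for XX Ctnnb1KO, with Ctnnb1+/f and Sox9f/f for XX Sox9KO, and with Ctnnb1f/f and Sox9f/f for XX DKO. The 15 XY arrays of the same 4 genotypes (4, 4, 4 and 3) served for the test of the difference between XX and XY gonads. No group lacked the transgene or carried 2 unfloxed Sox9 alleles, so every comparison here is between loss of both Sox9 alleles and loss of 1, called Sox9-deleted and Sox9-retaining below. Each array held RNA from the gonads of 1 embryo, taken free of mesonephros. Sf1 (Nr5a1) regulatory sequence drives Cre in gonadal somatic cells and in the adrenal cortex, and germ cells keep both genes.

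SOX9 is an HMG-box transcription factor. In the XY gonad, SRY raises it in the supporting cells, which become Sertoli cells and make hormones and signals that pattern the testis. In the XX gonad the supporting cells become pregranulosa cells under WNT4, RSPO1 and beta-catenin (Ctnnb1) and under FOXL2, and Sox9 stays low. Outside the gonad SOX9 drives cartilage collagen genes.

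The XX Ctr arrays carried the marks of a fetal ovary. In the 4 XX Ctr arrays Foxl2, the transcription factor of pregranulosa cells, had signals of 1500.4, 1576.5, 1693.3 and 1669.6, against 53.4, 60.8, 38.4 and 51.2 in XY Ctr. Dhh, the hedgehog ligand of Sertoli cells, had 44.8, 35.3, 75.0 and 28.8 in XX Ctr, against 2268.7, 2313.0, 2394.5 and 2014.7 in XY Ctr. These groups did not overlap for either gene. The XX gonads without Ctnnb1 departed from XX Ctr. On Ctnnb1 loss Foxl2 was lower (-0.87, limma adjusted p = 1.11e-06) and Dhh higher (1.56, limma adjusted p = 1.66e-07). One library went against its label: the library labelled XX Ctnnb1KO replicate 4 had an Xist signal of 51.1, where the other 15 XX arrays lay between 7489.8 and 9431.7, while the Y-linked Eif2s3y was as low there (29.6) as in the XX arrays in general (2.0 to 30.3). A paragraph near the end gives the results without it. The median signal of the XX arrays ran from 141.8 to 168.8. A probe set of Sry was no check of a Y chromosome, because it averaged 224.2 ± 40.0 (SD, n = 4) in XX Ctr and 227.5 ± 19.3 (SD, n = 4) in XY Ctr. The Ctnnb1 probe set did not follow the Ctnnb1 label (-0.05 on Ctnnb1 loss, limma adjusted p = 0.527). Where it and the Sox9 probe sets lie relative to the floxed parts is not stated by the labels, so it checks nothing. In whole gonads, fewer cells of a type and less RNA per cell cannot be told apart.

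Sox9 itself was low in XX gonads, and lower still where both alleles were floxed. On the Sox9 probe set with the highest signal (1451538_at, on chromosome 11) the XX Ctr arrays gave 174.3, 11.7, 119.0 and 174.0 and the XX Ctnnb1KO arrays 114.6, 136.5, 98.6 and 82.8. The XX Sox9KO arrays gave 21.0, 62.5, 21.8 and 11.1 and the XX DKO arrays 27.1, 50.9, 6.3 and 9.7. All Sox9-deleted arrays thus lay under every Sox9-retaining array except XX Ctr replicate 2, whose 11.7 sat among the deleted ones. XY Ctr gonads gave 929.1 ± 94.5 (SD, n = 4) on this probe set and XY Sox9KO gonads 23 ± 16.7 (SD, n = 4), so the deleted XX arrays lay at the level of deleted XY arrays.

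The Sox9 difference on the log2(signal + 16) scale was -1.58 ± 0.35 (SE), with a 95% interval from -2.31 to -0.84. An exact two-sided permutation of the 8 and 8 arrays within each Ctnnb1 genotype gave p = 0.00408 for this probe set, and 0.0122 after Benjamini-Hochberg adjustment over the 3 Sox9 probe sets, with 0.000408 the smallest p that the 4900 arrangements allow. The limma fit over all genes gave an adjusted p of 0.435 for Sox9, so the targeted gene itself was not called. Without XX Ctr replicate 2 the difference was -1.89 ± 0.25 (SE) and limma's adjusted p was 0.00573. Without the library labelled XX Ctnnb1KO replicate 4 it was -1.61 ± 0.37 (SE), adjusted p = 0.472. The difference was -1.38 ± 0.51 (SE) between XX Sox9KO and XX Ctr and -1.77 ± 0.51 (SE) between XX DKO and XX Ctnnb1KO, with limma adjusted p-values of 0.991 and 0.531.

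The other probe sets of Sox9 showed smaller differences. Probe set 1424950_at gave 107.3, 50.8, 51.2 and 74.6 in XX Ctr, 55.4, 77.5, 54.5 and 54.9 in XX Ctnnb1KO, 49.0, 44.2, 46.1 and 51.9 in XX Sox9KO, and 42.3, 54.1, 23.4 and 62.3 in XX DKO. The groups overlapped, with a difference of -0.38 and an exact permutation p of 0.0261 (0.0392 adjusted over the 3 probe sets). Probe set 1433889_at stayed between 2.1 and 37.0 on all 16 arrays and gave a difference of 0.16 (exact permutation p = 0.553, also after adjustment).

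**Figure D1:**
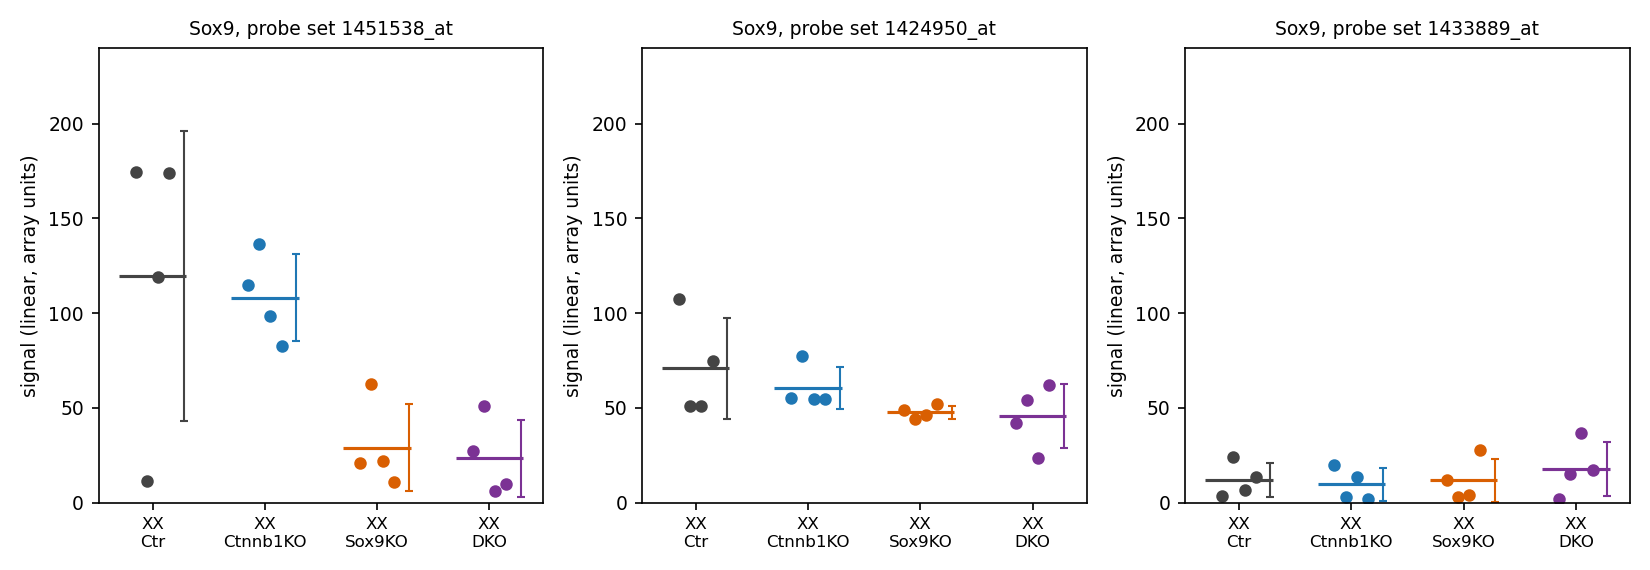
Signal (linear, array units) of the 3 Sox9 probe sets on each of the 16 XX arrays, by genotype; points are arrays, lines group means and bars SD (n = 4). On 1451538_at the Sox9-deleted arrays reach at most 62.5, and XX Ctr replicate 2 lies among them at 11.7, while 1433889_at stays low in every group.

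Across the genome, the pooled 8 against 8 comparison asked whether any transcript differed on loss of the little Sox9 present in XX gonads. limma called 0 of 11779 genes at an adjusted p under 0.05 (0% called), and 1084 genes (9.2%) had an unadjusted p under 0.05, 341 lower (2.89%) and 743 higher (6.31%) in Sox9-deleted gonads. Under quantile normalization between arrays the unadjusted split was 386 lower and 536 higher, so that the share of higher genes was 58.1% in place of 68.5%. Without the library labelled XX Ctnnb1KO replicate 4, limma again called 0 genes; 1000 had p under 0.05 before adjustment. In the same 16 arrays and the same fit, loss of Ctnnb1 gave 2329 called genes (19.8%), 1130 lower and 1199 higher.

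The intervals show what size of difference the arrays allow for each gene. They were computed gene by gene for the 11779 genes tested, without adjustment for their number, so some will miss the true value. Their scale, log2(signal + 16), understates fold changes of dim genes. The 95% interval of the difference lay inside a 2-fold change in either direction for 11707 genes (99.4%) and inside a 1.5-fold change for 11240 genes (95.4%), with a median half-width of 0.19 log2 units. The median absolute difference was 0.08. For loss of Ctnnb1 298 genes differed by over 2-fold, and for loss of Sox9 only 3 did (0.0255%): Sox9, Ttr and Mpo. Ttr encodes transthyretin, a hormone carrier of the yolk sac, liver and choroid plexus, and Mpo encodes myeloperoxidase of granulocyte precursors. For both, the Sox9-retaining and Sox9-deleted arrays overlapped. Ttr ran from 89.0 to 2053.3 (median 417.0) in Sox9-retaining and from 27.1 to 707.7 (median 266.6) in Sox9-deleted gonads, a difference of -1.13 ± 0.64 (SE; limma adjusted p = 0.616). Mpo ran from 16 to 1913.6 (median 486.7) against 92.6 to 1839.8 (median 1339.0), a difference of 1.14 ± 0.60 (SE; limma adjusted p = 0.584). In the 4 XX Ctr arrays alone it took the values 1312.1, 16, 81.9 and 55.9, while the XX DKO arrays lay between 1333.2 and 1839.8. These ranges pool both Ctnnb1 genotypes, and Mpo was higher on Ctnnb1 loss (2.49, limma adjusted p = 0.00492). Without XX Ctr replicate 1 the Sox9 difference of Ttr was -0.70 and that of Mpo 1.64.

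**Figure D2:**
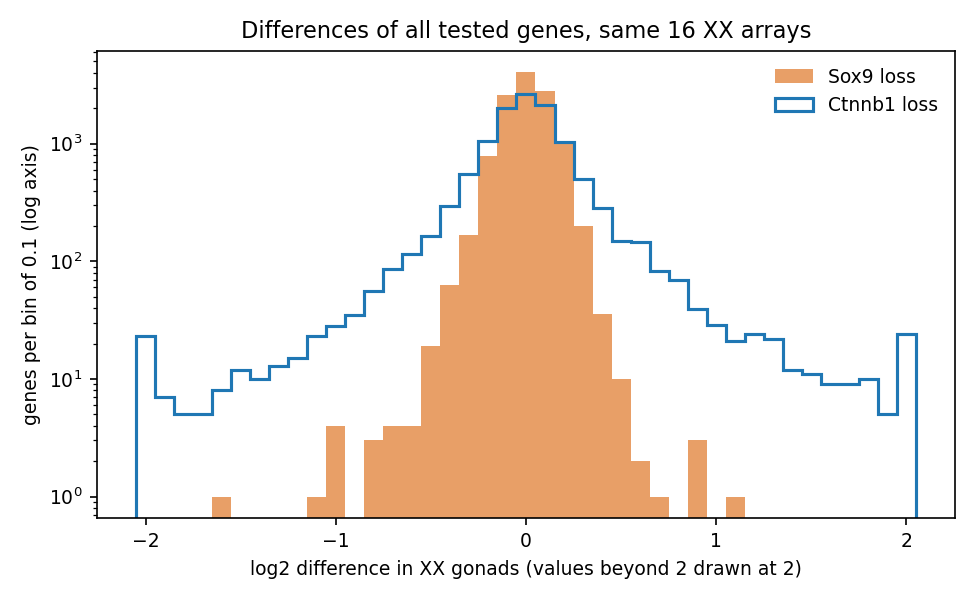
Number of genes (log axis) by log2 difference in XX gonads, for loss of Sox9 (filled) and loss of Ctnnb1 (outline), from the same fit of 16 arrays and 11779 genes. The Sox9 differences are narrower: 3 genes exceed 2-fold, against 298 for Ctnnb1.

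The 2 Ctnnb1 backgrounds gave separate comparisons that share no array. XX Sox9KO against XX Ctr gave 0 called genes and 477 (4.05%) at an unadjusted p under 0.05 in limma, and XX DKO against XX Ctnnb1KO gave 0 called and 955 (8.11%). Across genes, which are not independent replicates, the differences in the 2 backgrounds correlated at r = 0.17 (n = 11779 genes), and 57.3% of genes had the same sign. The 56 genes at an unadjusted p under 0.05 in both made up 11.7% of the first list and 5.9% of the second, and 46 of them had the same sign. A low shared estimate of spread favours a small p in both, so the 2 lists are not independent. The interaction of Sox9 and Ctnnb1 loss, tested as the difference between the 2 differences, gave 0 called genes in limma and 424 (3.6%) at an unadjusted p under 0.05.

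One transcript came nearest to a call, and it was singled out after its values were seen. 2410022M11Rik is annotated as a long non-coding RNA gene on chromosome 14. Its signals were 73.1, 148.5, 122.5 and 76.0 in XX Ctr and 92.7, 75.1, 127.0 and 102.5 in XX Ctnnb1KO. They were 206.6, 252.7, 186.5 and 216.7 in XX Sox9KO and 163.1, 178.6, 160.0 and 228.1 in XX DKO. Every Sox9-deleted array lay above every Sox9-retaining array, with a gap from 148.5 to 160.0. The difference was 0.88 ± 0.14 (SE, 95% interval 0.59 to 1.18) with a limma adjusted p of 0.0568, just short of the threshold of 0.05, and it was 0.98 with 1 floxed Ctnnb1 allele and 0.79 without Ctnnb1. Without the library labelled XX Ctnnb1KO replicate 4 it was 0.90 ± 0.15 (SE; limma adjusted p = 0.12). Over 27 alternative settings the difference ran from 0.51 to 0.98 and the adjusted p from 0.0101 to 0.516, and the gene was called in 4 of them: a pseudocount of 64, the fit of all 31 arrays, without XX Ctr replicate 2, and without XX Ctnnb1KO replicate 3.

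A second probe set for 2410022M11Rik did not separate the groups, with 54.7 to 92.9 (median 83.1) in Sox9-retaining and 51.5 to 116.8 (median 98.0) in Sox9-deleted gonads, a difference of 0.14. In XY gonads the first probe set gave 145.7, 83.7, 166.5 and 70.2 in XY Ctr and 230.6, 177.3, 193.3 and 155.3 in XY Sox9KO. It gave 158.9, 148.4, 110.2 and 97.6 in XY Ctnnb1KO and 129.9, 150.2 and 116.0 in XY DKO, where the groups overlapped. The XY difference was called between XY Sox9KO and XY Ctr (0.69 ± 0.22, SE; limma adjusted p = 0.0135). It was not called between XY DKO and XY Ctnnb1KO (0.05, limma adjusted p = 0.93). Averaged over both backgrounds it was 0.37 (limma adjusted p = 0.0713), and the difference between XY and XX was -0.52 ± 0.22 (SE; adjusted p = 0.0909).

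Including it, 5 genes (0.0424% of those tested) had 8 Sox9-deleted arrays entirely above or below the 8 Sox9-retaining ones. Asz1, a germ cell protein of the piRNA pathway, was the only one of the 5 that lay lower, with 346.9 to 526.2 in Sox9-deleted against 578.6 to 743.4 in Sox9-retaining gonads, a difference of -0.42 ± 0.09 (SE). A second Asz1 probe set overlapped, with 200.2 to 425.1 against 242.9 to 491.7. Atat1, the alpha-tubulin acetyltransferase, lay higher by 0.30 ± 0.07 (SE), at 766.6 to 1047.4 against 592.9 to 753.4. Ift43, a subunit of the intraflagellar transport complex of cilia, lay higher by 0.30 ± 0.07 (SE), at 1252.9 to 1441.8 against 862.7 to 1237.2. Rps28, a ribosomal protein, lay higher by 0.30 ± 0.07 (SE), at 25371.9 to 30059.9 against 16181.8 to 25222.2. limma's adjusted p was 0.435 for these 4 genes. Between XY Ctr and XY Sox9KO all 4 overlapped: for Ift43 the XY Ctr arrays ran from 1248.4 to 1607.9 and the XY Sox9KO arrays from 1226.4 to 1654.4.

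**Figure D3:**
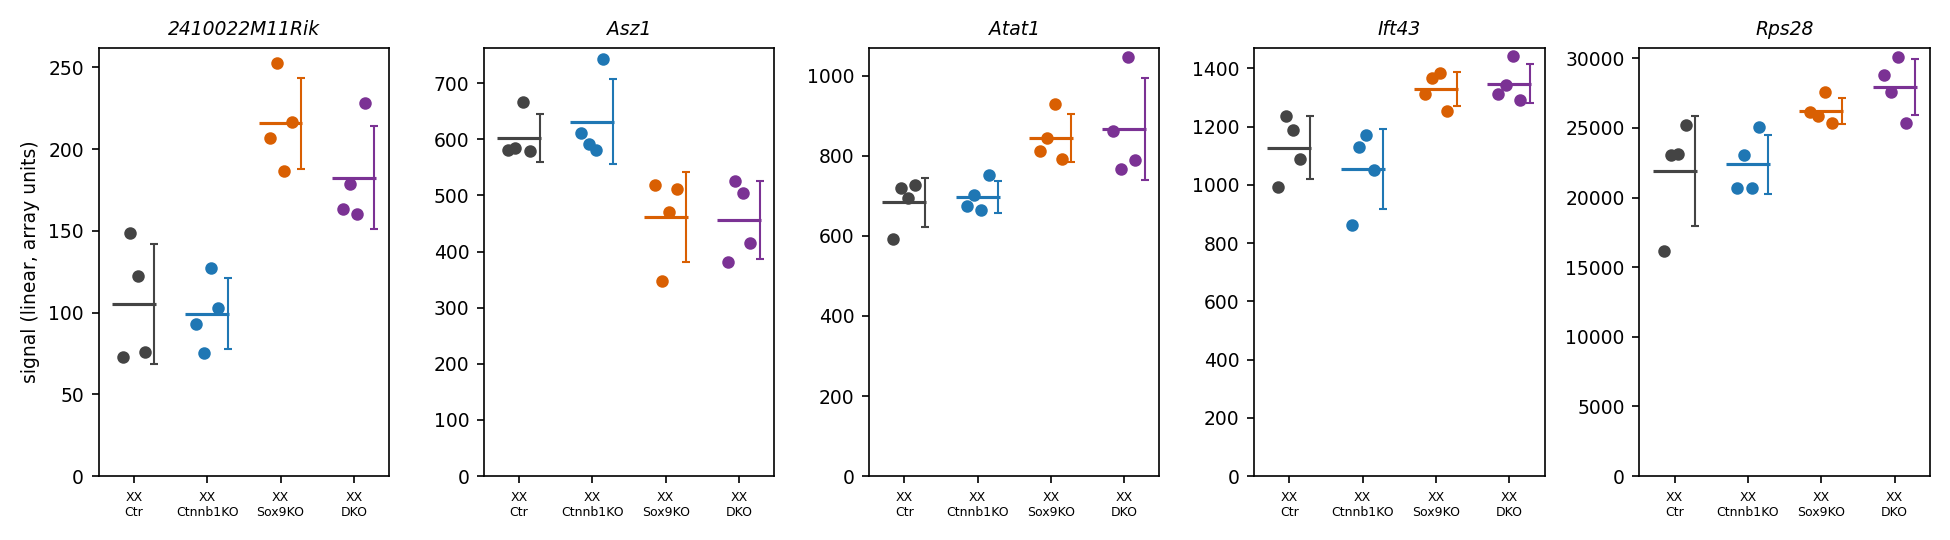
Signal (linear, array units, each panel with its own axis from 0) of the 5 genes whose Sox9-deleted and Sox9-retaining arrays do not overlap, by XX genotype; points are arrays, lines group means and bars SD (n = 4). The gaps are narrow: 753.4 to 766.6 for Atat1 and 25222.2 to 25371.9 for Rps28.

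The 20 genes with the smallest p-values, leaving out predicted genes, were Asz1, Sox9, Ift43, Ctr9, Alcam, Dnm1, Mtmr11, Nenf, Rpl38, Atat1, Nop10, Rps28, Tns2, Lgals1, Inip, Lonrf1, Cacng8, Tada3, Hnrnpab and Ammecr1. None was called by limma, each with an adjusted p of 0.435; 14 lay higher and 6 lower in Sox9-deleted gonads. Apart from Sox9 the differences were between 0.23 and 0.65 in size. All 20 had the same sign in both Ctnnb1 backgrounds, which their choice by the pooled p favours. Cacng8, an auxiliary subunit of glutamate receptors and calcium channels, had the largest of them, 0.65 ± 0.17 (SE): its signal ran from 38.5 to 142.2 (median 75.3) in Sox9-retaining and from 76.1 to 204.8 (median 136.8) in Sox9-deleted gonads, and the groups overlapped. Ctr9, a subunit of the Paf1 complex of transcription elongation, differed by -0.49 ± 0.11 (SE), at 565.0 to 1086.1 (median 687.3) against 711.5 to 1299.9 (median 1109.0), again with overlap.

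In XY gonads Sox9 loss had a called effect on 4571 of the 11779 genes (38.8%), and on 8 of these 20 (40.0%), close to that background. Of the 20, 10 had an XY difference of the same sign as in XX, and 4 of the 8 called ones did. Alcam, a cell adhesion molecule, illustrates the opposite sign. It lay at 4413.4 to 6301.5 (median 4961.0) in Sox9-retaining and at 5174.4 to 6476.3 (median 6014.4) in Sox9-deleted XX gonads, while it fell in XY gonads (-0.35, limma adjusted p = 1.75e-05). The XX difference of Alcam was 0.24 ± 0.05 (SE) with the deposited scaling and 0.19 ± 0.05 (SE) with quantile normalization. Lonrf1, which encodes a RING-finger protein, lay at 1016.0 to 1291.2 (median 1144.6) and 879.8 to 1078.1 (median 998.2) in XX and rose in XY gonads (0.83, limma adjusted p = 7.13e-11).

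Part of the shift toward higher values lay among the brightest probe sets. The median difference was -0.03 among the 225 genes with a mean XX signal up to 100, 0.01 among the 4393 genes from 300 to 1000, 0.04 among the 1117 genes from 3000 to 10000, and 0.16 among the 128 genes over 10000, all of which lay higher. The 46 ribosomal protein genes tested, a group picked after values were seen and so described without a test, had a median of 0.18 beside 0.01 for all genes, and 41 of them lay higher. Their median was 0.16 with 1 floxed Ctnnb1 allele, 0.22 without Ctnnb1, and 0.06 in XY gonads. The 95 other genes over 10000 all lay higher too, with a median of 0.14. With quantile normalization the medians were 0.03 for the ribosomal protein genes and 0.00 for the other bright genes, of which 52 of 95 lay higher. Quantile normalization gives every array the same distribution of signals, so by its design it removes a shift shared by the brightest genes. The summed ribosomal protein signal ran from 448226 to 637231 in XX Ctr, 549342 to 625791 in XX Ctnnb1KO, 617265 to 680449 in XX Sox9KO and 635828 to 731968 in XX DKO. The top of the signal range also differed between arrays. The highest signal of any probe set on an array ran from 25503 to 39859 in XX Ctr and from 33376 to 38065 in XX Ctnnb1KO. It ran from 38634 to 44073 in XX Sox9KO and from 37594 to 44112 in XX DKO. Quantile normalization moved 4 of the 20 genes named above by more than 1.5 times: Rpl38 from 0.33 to 0.06, Rps28 from 0.30 to 0.06, Lgals1 from 0.26 to 0.08 and Hnrnpab from 0.24 to 0.02. The cause of the shift was not tested.

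**Figure D4:**
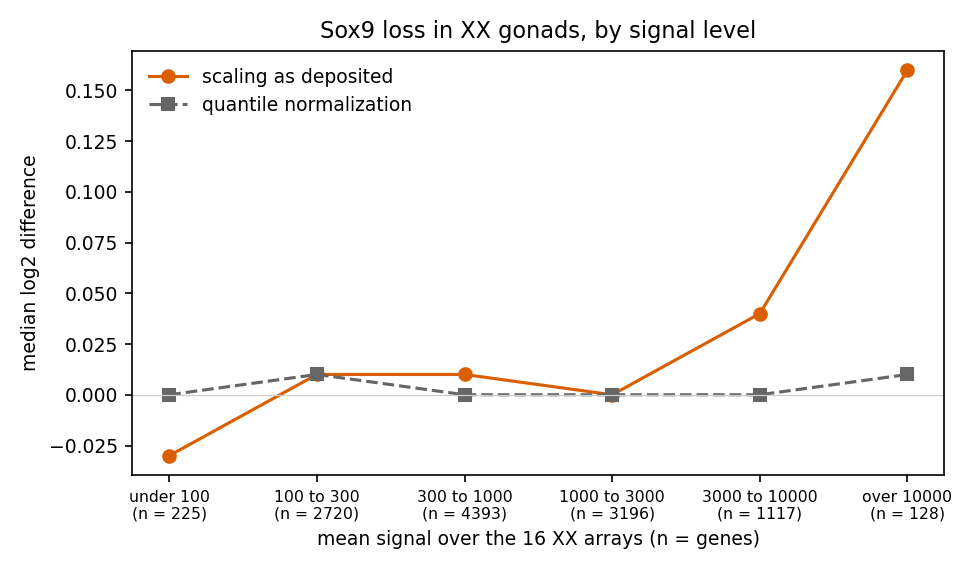
Median log2 difference between Sox9-deleted and Sox9-retaining XX gonads, for genes grouped by mean signal over the 16 XX arrays, with the deposited scaling (circles) and after quantile normalization (squares). The median reaches 0.16 in the 128 brightest genes with the deposited scaling and 0.01 after quantile normalization. The latter by its design removes a shift shared by the brightest genes.

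The genes through which SOX9 acts in the testis did not pass the test in XX gonads. Of 22 Sertoli cell and testis genes, 20 were tested, 0 were called by limma, and 3 had an unadjusted p under 0.05: Clu and Fgf9 higher and Dmrt1 lower (15% of the 20, beside 9.2% of all genes, which is the background for each such count in the lists that follow). Their median difference was 0.06, beside 0.01 for all genes, and the 95% interval lay within 2-fold for 19 of the 20. The summed signal of the 20 genes ran from 15783 to 22621 (median 18051) in Sox9-retaining and from 17592 to 21920 (median 19693) in Sox9-deleted XX gonads, beside 60093 to 66648 in XY Ctr. In XY gonads the effect of Sox9 loss differed from that in XX for 19 of the 20 genes by the test of the difference, 18 of them more negative in XY, beside 26.2% of all genes called in that test. The filter used all 31 arrays, so a gene could be tested through its XY signal alone. Amh was such a gene, at 5.8 to 79.3 on the XX arrays, whose lowest median was 141.8. A gene near the floor in XX gonads has little room to fall there, which favours a more negative XY effect. The count cannot separate this from a difference in response.

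The hormone gene Amh, a direct SOX9 target in Sertoli cells, was near the floor in XX gonads. It gave 13.1, 7.6, 5.8 and 48.3 in XX Ctr, 12.3, 12.1, 11 and 12.2 in XX Ctnnb1KO, 6.8, 9.8, 11.3 and 79.3 in XX Sox9KO, and 9.3, 10.2, 54.4 and 13 in XX DKO. In each of 3 groups 1 array stood above the rest, and the difference was 0.23 ± 0.32 (SE). XY Ctr arrays gave 211.3, 207.1, 234.1 and 206.5. The XY minus XX difference in the effect was -3.04 ± 0.38 (SE; limma adjusted p = 3.07e-07).

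Dhh rose on Ctnnb1 loss in these XX gonads (1.56, limma adjusted p = 1.66e-07). Its signals were 126.3, 152.7, 119.4 and 169.5 in XX Ctnnb1KO and 166.5, 195.4, 155.0 and 185.3 in XX DKO, and the XX Sox9KO arrays (49.8, 46.7, 42.1 and 30.7) overlapped XX Ctr. The pooled difference was 0.12 ± 0.15 (SE, 95% interval -0.19 to 0.43). Ptgds, the prostaglandin D2 synthase that acts upstream and downstream of SOX9 in the testis, gave 621.9, 1187.5, 805.9 and 740.6 in XX Ctnnb1KO and 966.5, 1161.9, 848.0 and 582.9 in XX DKO, with a pooled difference of 0.04 ± 0.16 (SE). Cst9, a cystatin of Sertoli cells, gave 362.4, 477.0, 367.0 and 363.6 in XX Ctnnb1KO and 450.7, 348.2, 430.2 and 509.0 in XX DKO, with a pooled difference of 0.13 ± 0.10 (SE). For these 3 testis genes the XX Ctnnb1KO and XX DKO arrays overlapped. Hsd17b3 and Vnn1, an androgen-synthesis enzyme and a pantetheinase, also rose on Ctnnb1 loss (4.50 and 1.28, limma adjusted p = 1.71e-12 and 7.01e-08) and had Sox9 differences of 0.00 ± 0.19 and 0.03 ± 0.11 (SE).

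No promoter window was available for Sox9, Amh or 2410022M11Rik, and those of Ptgds and Cst9 are shown. For these genes the XY effect of Sox9 loss was far from the XX effect, although other named genes had larger gaps than Ptgds. Both promoters are from RefSeq on build GRCm38.p6 and run from 250 bases before the gene's start to the base before it, 5′ to 3′ on the gene's strand: chr2:25469750-25469999 on the minus strand for Ptgds and chr2:148834897-148835146 on the plus strand for Cst9. Capitals mark the SOX motif AACAAAG on either strand (CTTTGTT on the other). It occurs 0 times in the Ptgds window and 1 time, on the other strand and 152 bases before the start, in that of Cst9. Of 32851 promoter windows of this length 5.03% hold it, and a match describes letters only.
Ptgds: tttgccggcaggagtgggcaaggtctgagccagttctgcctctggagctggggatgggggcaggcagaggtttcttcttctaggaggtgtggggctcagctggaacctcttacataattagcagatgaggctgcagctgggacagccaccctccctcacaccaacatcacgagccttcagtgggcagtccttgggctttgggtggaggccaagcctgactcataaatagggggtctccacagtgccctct
Cst9: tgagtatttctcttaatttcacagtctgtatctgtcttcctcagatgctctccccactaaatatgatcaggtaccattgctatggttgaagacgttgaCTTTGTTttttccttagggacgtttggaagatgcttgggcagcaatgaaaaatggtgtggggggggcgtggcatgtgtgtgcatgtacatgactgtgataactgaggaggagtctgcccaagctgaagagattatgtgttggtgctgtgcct

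For the same genes the XY arrays gave another picture. The XY minus XX difference was -3.94 ± 0.17 (SE) for Dhh, -3.50 ± 0.23 (SE) for Ptgds and -4.31 ± 0.15 (SE) for Cst9, with limma adjusted p-values of 3.74e-17, 4.21e-13 and 1.64e-19. In XY Ctr, Cst9 gave 5596.6, 6906.7, 5913.1 and 6842.9, and in XY Sox9KO 141.0, 161.6, 201.9 and 118.6, overlapping XX Ctr (141.7, 161.9, 172.1 and 182.0). Clu, the secreted chaperone clusterin, had opposite signs in XX and XY gonads: it lay at 6148.1 to 8720.8 (median 7178.3) in Sox9-retaining and at 7933.7 to 9794.4 (median 8668.8) in Sox9-deleted XX gonads, a difference of 0.25 ± 0.07 (SE; limma adjusted p = 0.435), while it fell in XY gonads (-0.67, limma adjusted p = 1.78e-08). With quantile normalization the XX difference of Clu was 0.17 ± 0.06 (SE). The XY minus XX difference for Clu, with the deposited scaling, was -0.93 ± 0.11 (SE, limma adjusted p = 4.16e-08). Dmrt1, a testis factor that fetal germ cells of both sexes also express, gave 417.2, 621.5, 472.5 and 452.9 in XX Ctr and 182.7, 204.0, 522.4 and 139.2 in XX Sox9KO, a background difference of -1.03, but -0.06 between XX DKO and XX Ctnnb1KO. Its pooled difference was -0.54 ± 0.24 (SE; limma adjusted p = 0.515).

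**Figure D5:**
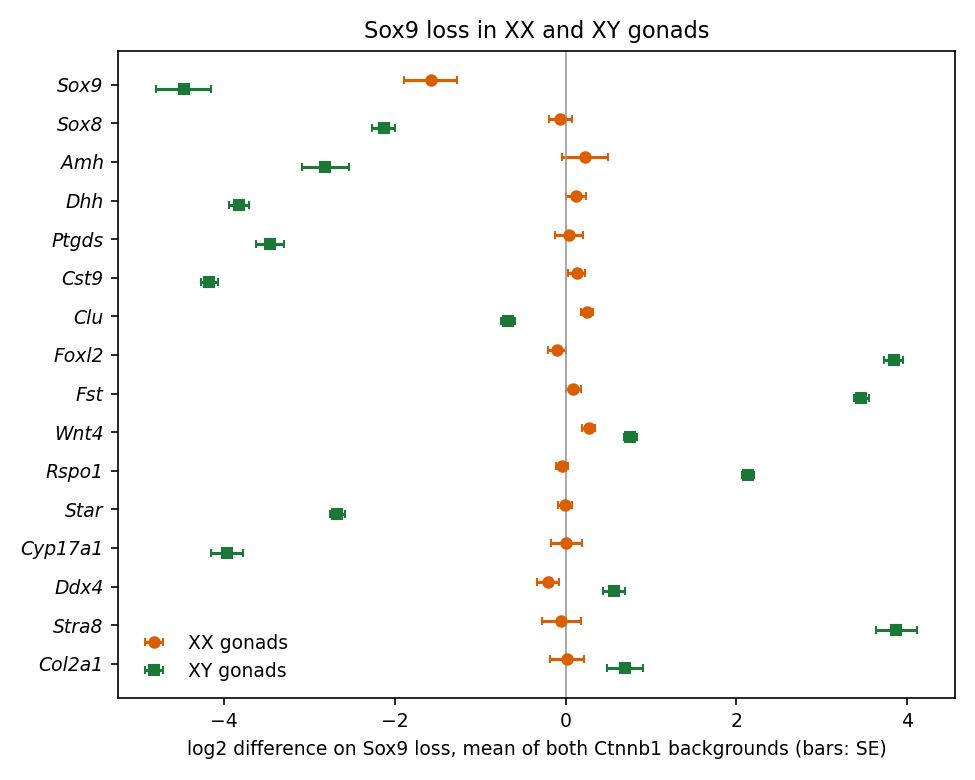
Log2 difference on loss of Sox9, mean of both Ctnnb1 backgrounds, in XX (circles, 16 arrays) and XY gonads (squares, 15 arrays) for 16 genes; bars are SE from the fit of all 31 arrays. Apart from Sox9 at -1.58, the XX values lie near 0, while the XY values run from -4.47 for Sox9 to 3.87 for Stra8.

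No other SOX gene was called. Of 20 family members, 13 were tested, 0 were called, and 2 had an unadjusted p under 0.05, Sox9 and the Sry probe set described above (-0.45 ± 0.14, SE). Sox8, which backs up SOX9 in Sertoli cells, gave 79.2 to 153.4 (median 94.6) in Sox9-retaining and 72.8 to 111.9 (median 103.9) in Sox9-deleted XX gonads, a difference of -0.06 ± 0.14 (SE). The XY minus XX difference for Sox8 was -2.07 ± 0.18 (SE; limma adjusted p = 2.23e-10). Sox10, the third member of its subgroup, did not pass the filter on low signal and stayed between 1.6 and 30.3 on the XX arrays. Of 25 cartilage genes that SOX9 controls in chondrocytes, 13 were tested, 0 were called, and 11 had higher values, with a median of 0.08. Col2a1, the type II collagen gene, ran from 91.7 to 378.0 (median 176.4) and from 82.7 to 314.4 (median 193.5), a difference of 0.02 ± 0.17 (SE). Fmod, which encodes the matrix proteoglycan fibromodulin, was the only one of the 13 with an unadjusted p under 0.05 (0.18 ± 0.08, SE; limma adjusted p = 0.523).

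No gene of the ovarian program was called. Of 17 pregranulosa and ovary genes, 15 were tested, 0 were called, and 2 had an unadjusted p under 0.05, both higher (Wnt4 and Gng13, a G protein subunit), beside 9.2% of all genes (6.31% higher). Gng13 went from 0.16 ± 0.05 to 0.08 ± 0.05 (SE) under quantile normalization, where its unadjusted p was over 0.05, which left 1 such gene. Their median difference was 0.02 and the 95% interval lay within 1.5-fold for all 15. In XX Sox9KO, Foxl2 gave 1530.2, 1681.4, 1455.5 and 1349.6, beside the XX Ctr values above. It gave 742.0, 1137.2, 977.2 and 698.0 in XX Ctnnb1KO and 774.1, 1040.7, 742.4 and 726.6 in XX DKO. The groups overlapped within each background, and the difference was -0.10 ± 0.10 (SE, 95% interval -0.30 to 0.10). Fst, the activin antagonist follistatin that WNT signalling sustains, gave 3456.3, 3269.9, 2696.4 and 3144.2 in XX Ctr and 3529.1, 3585.9, 2926.7 and 3468.4 in XX Sox9KO. It was at 240.2, 242.5, 213.0 and 194.3 in XX Ctnnb1KO and at 249.7, 208.3, 202.8 and 288.9 in XX DKO. The pooled Sox9 difference for Fst was 0.09 ± 0.08 (SE), beside a Ctnnb1 difference of -3.74 in the same fit. Rspo1, the secreted WNT agonist, had a difference of -0.04 ± 0.07 (SE).

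Wnt4 is the signal at the head of the ovarian WNT pathway. It gave 1524.8, 1550.2, 1284.0 and 1601.8 in XX Ctr and 1726.2, 2185.1, 1427.0 and 1692.8 in XX Sox9KO, which overlapped. It gave 602.6, 744.8, 653.7 and 562.3 in XX Ctnnb1KO and 777.6, 878.0, 711.8 and 812.1 in XX DKO, where only 744.8 and 711.8 crossed. The difference was 0.27 ± 0.08 (SE, 95% interval 0.09 to 0.44; limma adjusted p = 0.435). Averaged over both backgrounds, Wnt4 rose in XY gonads by 0.76 (limma adjusted p = 1.22e-08). This XY mean exceeded the XX mean by 0.49 ± 0.12 (SE, limma adjusted p = 0.00176). The backgrounds differed in XY gonads: 1.57 between XY Sox9KO and XY Ctr (limma adjusted p = 1.63e-12), but -0.05 between XY DKO and XY Ctnnb1KO (0.86). The XX differences were 0.22 between XX Sox9KO and XX Ctr and 0.31 between XX DKO and XX Ctnnb1KO. Of 14 canonical WNT target genes, 11 were tested, 0 were called and 1 had an unadjusted p under 0.05 (Rnf43, a ubiquitin ligase that removes WNT receptors, 0.29 ± 0.13, SE), with a median of 0.01. For Foxl2, Fst and the WNT target Tnfrsf19 the XY effect exceeded the XX effect by 3.94 ± 0.16, 3.36 ± 0.13 and 2.69 ± 0.09 (SE), with limma adjusted p-values of 3.81e-18, 1.33e-18 and 1.64e-19.

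Steroid-producing cells gave no calls in XX gonads. All 7 fetal Leydig genes tested had limma adjusted p-values over 0.05, with a median of 0.03, and none had an unadjusted p under 0.05. Star, which moves cholesterol into mitochondria, gave 270.0 to 810.7 (median 487.3) and 234.4 to 851.5 (median 485.3), a difference of -0.01 ± 0.08 (SE), and Cyp17a1, a steroid hydroxylase, differed by 0.01 ± 0.20 (SE). For all 7 the XY effect differed from the XX effect and was the lower (Star, XY minus XX: -2.66 ± 0.12, SE, limma adjusted p = 1.35e-16). The limit given above for genes near the floor in XX gonads applies to this count too. Of 6 adrenal cortex genes 5 were tested, and 2 had an unadjusted p under 0.05, both lower, beside 9.2% of all genes (2.89% lower). Cyp21a1, the adrenal 21-hydroxylase, gave 63.1, 73.5, 54.1 and 80.4 in XX Ctr and 13.1, 14.2, 28.6 and 87.9 in XX Sox9KO, and 96.0, 149.8, 210.4 and 92.6 in XX Ctnnb1KO and 65.7, 87.0, 78.0 and 85.2 in XX DKO. The 2 groups without Ctnnb1 did not overlap, and with 1 floxed Ctnnb1 allele XX Sox9KO replicate 4 lay above the controls. The difference was -0.76 ± 0.23 (SE, 95% interval -1.23 to -0.28, limma adjusted p = 0.435). Averaged over both backgrounds, Cyp21a1 fell in XY gonads (-1.84, limma adjusted p = 2.44e-06). It differed by -2.82 between XY Sox9KO and XY Ctr (limma adjusted p = 3.15e-07) and by -0.86 between XY DKO and XY Ctnnb1KO (0.163). Mc2r, the corticotropin receptor, gave 69.1, 71.7, 53.3 and 47.8 in XX Ctr and 32.9, 31.3, 21.1 and 21.3 in XX Sox9KO without overlap, but overlapped between XX Ctnnb1KO and XX DKO. Its pooled difference was -0.45 ± 0.17 (SE; limma adjusted p = 0.464). Both adrenal genes were dim in XX gonads, where the lowest array median was 141.8. Mc2r ran from 21.1 to 71.7 there, so it was tested through its XY signal alone. Cyp21a1 exceeded 141.8 only in XX Ctnnb1KO. The adrenal count thus rests on signals near the floor.

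Interstitial and muscle genes gave no calls. Of 10 interstitial and hedgehog target genes tested, 5 lay higher and 5 lower, between -0.29 and 0.31 with a median of 0.01, and 2 had an unadjusted p under 0.05: Tcf21, a transcription factor of gonadal stroma, at 0.31 ± 0.08 (SE; limma adjusted p = 0.435), and Pdgfra, the platelet-derived growth factor receptor, at 0.18 ± 0.08 (SE; adjusted p = 0.514). Tcf21 ran from 2427.7 to 3250.1 (median 2582.9) in Sox9-retaining and from 2638.4 to 4563.2 (median 3263.6) in Sox9-deleted XX gonads, which overlapped, and the XY minus XX difference was -0.88 ± 0.11 (SE; adjusted p = 2.09e-07). Of 4 peritubular myoid genes tested Acta2, smooth muscle actin, had an unadjusted p under 0.05 (0.24 ± 0.09, SE; limma adjusted p = 0.464). Surface epithelium had 12 genes tested and 3 with an unadjusted p under 0.05 (25% beside 9.2% of all genes), all higher: Upk3b, a uroplakin of mesothelium, at 0.19 ± 0.06, and the keratins Krt8 and Krt18 at 0.20 ± 0.09 and 0.14 ± 0.07 (SE), none called. Their median was 0.09 with the deposited scaling and 0.08 with quantile normalization.

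Germ cell genes lay lower in the background with 1 floxed Ctnnb1 allele. Of 16 pan-germ cell genes tested 15 had lower values in Sox9-deleted XX gonads, with a median of -0.20 beside 0.01 for all genes. The median was -0.45 between XX Sox9KO and XX Ctr, and 0.06 between XX DKO and XX Ctnnb1KO; for single genes the interaction gave 0 calls, as above, and the difference between these medians was not tested. None was called, and Ddx4 alone had an unadjusted p under 0.05. Ddx4, the RNA helicase of germ cells, gave 1894.1, 2068.9, 2248.1 and 2149.1 in XX Ctr and 1963.8, 1165.0, 2062.2 and 1505.1 in XX Sox9KO. It gave 2266.7, 2078.0, 2677.3 and 2474.0 in XX Ctnnb1KO and 2129.8, 2196.9, 2560.9 and 2117.0 in XX DKO. The groups overlapped in both backgrounds, the low values being XX Sox9KO replicates 2 and 4, and the pooled difference was -0.21 ± 0.10 (SE; limma adjusted p = 0.537). The summed signal of the 16 genes ran from 17369 to 35509 (median 29427) in Sox9-retaining and from 15657 to 40436 (median 30410) in Sox9-deleted gonads. By group it ran from 17369 to 30421 (median 27598) in XX Ctr and from 15657 to 29640 (median 19714) in XX Sox9KO, which overlapped. It ran from 28432 to 35509 (median 34229) in XX Ctnnb1KO and from 31180 to 40436 (median 32499) in XX DKO, which also overlapped. Among 21 meiosis genes tested 0 had an unadjusted p under 0.05, the median was -0.04, and Stra8, the retinoic acid target that opens meiosis, ran from 2503.2 to 6182.5 (median 4351.6) and from 1996.9 to 6116.1 (median 4309.3). Its difference was -0.05 ± 0.18 (SE), and the XY effect exceeded it by 3.93 ± 0.33 (SE; limma adjusted p = 7.97e-11). Of 5 fetal male germ cell genes tested Piwil4, a piRNA-binding protein, had an unadjusted p under 0.05 (-0.47 ± 0.19, SE; adjusted p = 0.494). It differed by -0.82 and -0.13 in the 2 backgrounds.

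Markers of other cells gave no calls. Of the 16 endothelial, 13 leukocyte, 7 erythroid and 4 chondrocyte and neural crest genes tested, 0 were called and 0 had an unadjusted p under 0.05. The summed leukocyte signal ran from 4914 to 13729 in Sox9-retaining and from 5838 to 14313 in Sox9-deleted gonads, and the summed erythroid signal from 17219 to 30318 and from 17923 to 33244. Of 9 immediate early and heat shock genes tested, which can reflect handling, 0 had an unadjusted p under 0.05, and their median was -0.07. The 5 mesonephric duct and rete genes tested all lay higher, with a median of 0.14 beside 0.01 for all genes, and 0 were called. Among them Krt8 and Krt18, the keratins also counted under surface epithelium, alone had an unadjusted p under 0.05. Of 11 proliferation genes tested only Mki67 did (0.16 ± 0.05, SE; limma adjusted p = 0.435), and with quantile normalization its difference was 0.05 ± 0.05 (SE).

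The chromosomal surroundings of Sox9 were read from RefSeq gene order. Of the 20 nearest tested genes on chromosome 11, 10 on each side, 0 were called by limma and 1 had an unadjusted p under 0.05, the ribosomal protein gene Rpl38. Their differences ran from -0.15 to 0.33. Map2k6, a kinase gene on one side of Sox9, differed by -0.00 ± 0.09 (SE).

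Without the library labelled XX Ctnnb1KO replicate 4 the pooled comparison kept its count of 0 calls in limma, with 302 genes lower and 698 higher at p under 0.05 before adjustment. The 95% interval then lay within 2-fold for 99.3% of genes and within 1.5-fold for 94.8%. Loss of Ctnnb1 gave 2062 called genes. XX DKO against XX Ctnnb1KO gave 0 calls and 955 genes under 0.05 before adjustment, and the interaction gave 0 and 468. Over the 77 named genes other than Xist, no difference moved by more than 0.20, and 2 changed sign (Rspo1 and Cyp17a1, both near 0). The largest move was that of Mpo, from 1.14 to 1.34 ± 0.62 (SE; limma adjusted p = 0.578), and Asz1 gave -0.38 ± 0.09 (SE). Of the 41 named genes under 0.05 before adjustment, 6 were over it without this library: Ddx4, Fgf9, Rnf43, Fmod, Krt18 and Dmrt1. Others came under 0.05 without it, none of them called: Tnfrsf19, Mpo, Dnajb1 and Cdk1 (limma unadjusted p = 0.0328, 0.0428, 0.0388 and 0.0436). The Sertoli list then held 1 gene under 0.05, the pan-germ cell list 0 and the surface epithelium list 2. The canonical WNT list held 1, Tnfrsf19 in place of Rnf43. The leukocyte list and the immediate early and heat shock list held 1 each in place of 0, and the proliferation list 2 in place of 1. List medians moved by at most 0.08, which was the move for meiosis genes (-0.04 to -0.12) and adrenal cortex genes (-0.18 to -0.26). The pan-germ cell median was -0.22 pooled, and 0.12 in place of 0.06 in the background without Ctnnb1. The ribosomal protein median was 0.19.

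The difference between XX and XY gonads was tested directly. The XY effect of Sox9 loss differed from the XX effect for 3089 genes (26.2%), 1391 more negative and 1698 more positive in XY. Without the library labelled XX Ctnnb1KO replicate 4 the count was 3004. Across the 11779 genes, which are not independent replicates, the XX and XY differences correlated at r = 0.02. Of the 4571 genes called in XY gonads 417 (9.12%) had an unadjusted p under 0.05 in XX, beside 9.2% of all genes, and their median absolute difference in XX was 0.08, equal to that of all genes. Of 623 genes called and changed by over 2-fold in XY gonads, 597 had a 95% interval in XX that lay inside a 2-fold change. Genes tested through their XY signal alone are among those counted, and near the floor in XX gonads they have little room to fall.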

How the data were processed

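RNA from the gonads of single embryos (40 ng, amplified and biotin-labelled per the labels' protocols) was hybridised to 31 arrays. Per the submitters' processing notes the authors used MAS5, without a stated version; the deposited table holds one linear intensity for each probe set and array, and its arrays share 1 trimmed mean. Of 45101 probe sets, 64 controls were left out; by the platform's annotation, which can be old, 34945 had 1 gene symbol, 932 several and 9160 none. Symbols were looked up in RefSeq by Entrez identifier (34741 matched, 0 changed, 204 kept the platform's name). Each of 18193 genes was represented by its brightest probe set, averaged across the 31 arrays; 11779 lay above their own array's median on at least 3 of 31 arrays. Levels of different probe sets were not compared. log2(signal + 16) was fitted with limma 3.58.1 in R 4.3.3 (Sox9 and Ctnnb1 genotype terms, 16 XX arrays, 13 residual degrees of freedom, trended eBayes), with Benjamini-Hochberg adjustment over all 11779 genes and called meaning an adjusted p under 0.05. Adding 16 understates fold changes of dim genes. XX and XY were compared in 1 fit of 8 group means over 31 arrays, from which the XY values also come. The code was tested on simulated data. Arrays have no read depth; their number limits the precision, and p-values measure the spread between embryos of a group.

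The members, gene lists and tests were chosen with earlier results of these data known, so no list count is independent support. Named genes are Sox9, Sox8 and Sox10, label checks (Ctnnb1, Xist, Eif2s3y), the 20 smallest p-values without predicted genes, 12 defining genes of cell types, the members of each list with the smallest p (fewer than the 4 planned), and the 6 list members with the smallest p for XY minus XX. Genes named beyond the rule, after their values were seen, are 2410022M11Rik, Ttr, Hsd17b3, Vnn1, Dmrt1, Map2k6 and the ribosomal protein genes. Alternatives comprised quantile normalization, a pseudocount of 1 or 64, omission of the filter, the mean of a gene's probe sets, the replicate number as a block, array weights, all 31 arrays in 1 fit, other Ctnnb1 terms, and leaving out each array; a filter on the 16 XX arrays alone was chosen after seeing the data.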

Additional observations from a re-analysis of the deposited data

Results flagged for a closer look

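Arrays that stood apart from the other 3 of their group by the ratio of their gap to the group's range were looked for over 316 groups of 4 (each of the named genes in each XX group), and 19 were found; chance gives about 5% of such groups. The Xist signal of the library labelled XX Ctnnb1KO replicate 4, 51.1, was described above. Of the XX Ctr arrays, replicate 1 stood low for Erbb3 (133.1) and high for Hbb-bh1 (708.3), replicate 2 high for Tdgf1 (39.4) and low for Krt8 (1348.8), replicate 3 high for Asz1 (666.0) and Ptgds (368.1), and replicate 4 high for Tcf21 (2872.9). Of the XX Ctnnb1KO arrays, replicate 2 stood high for Hspb1 (1183.8), Upk3b (3769.2) and Cst9 (477.0), replicate 3 low for Amh (11), and replicate 4 high for Tnfrsf19 (659.6). Of the XX Sox9KO arrays, replicate 1 stood high for Hsd17b3 (47.0), replicate 3 low for Fst (2926.7), and replicate 4 high for Amh (79.3). Of the XX DKO arrays, replicate 1 stood low for Inip (520.2) and replicate 3 high for Amh (54.4) and Tdgf1 (42.4).

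The effect of Sox9 loss differed between XY and XX gonads by limma's test of the difference, at an adjusted p under 0.05, for 47 of the 78 named genes tested. The 17 given here are Sox9, Sox8, Clu, Tcf21, and those that passed among the defining cell type genes and the list members named for this comparison. The XY effect was the lower one by log2 differences of -2.90 for Sox9, -2.07 for Sox8, -3.04 for Amh, -3.94 for Dhh, -3.50 for Ptgds, -2.66 for Star, -3.97 for Cyp17a1, -0.93 for Clu, -0.88 for Tcf21 and -4.31 for Cst9. It was the higher one by 3.94 for Foxl2, 3.36 for Fst, 0.49 for Wnt4, 2.18 for Rspo1, 0.78 for Ddx4, 3.93 for Stra8 and 2.69 for Tnfrsf19.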

How the results depend on the processing

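The count of 0 called genes for pooled Sox9 loss in XX gonads became 1 with a pseudocount of 64 and 1 with all 31 arrays in 1 fit, in both cases 2410022M11Rik, and was 0 under the other 9 settings that kept every array. Leaving out 1 array gave 0 to 2 calls: 2 without XX Ctr replicate 2 (2410022M11Rik and Sox9), 1 without XX Ctnnb1KO replicate 3 (2410022M11Rik) and 0 without each of the other 14. Sox9 ran from -2.14 to -0.60 over 26 settings, with adjusted p-values from 0.00573 to 0.693; it did not pass the filter set on the XX arrays alone. The 2 single-background comparisons and the interaction gave 0 calls under every setting run. The XY minus XX count of 3089 ran from 2832 to 3801 over 8 settings and from 2753 to 3209 leaving out 1 array. Of 78 named genes 15, none of them called in either case, changed sign under some setting (47 of 2097 pairs of gene and setting). The cause of these changes was not tested. Replicate numbers were shared across groups, but deviations of same-numbered arrays correlated between -0.45 and 0.54, so the numbers were not taken as pairs; with the replicate block the pooled comparison gave 0 calls (1059 genes below 0.05 before adjustment), and XY minus XX gave 3014 calls.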
